A study of Mus musculus with 2 samples.

Results

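Fragments of ribosomal protein mRNAs were read from small RNA libraries of dendritic cells, the cells that take up antigen and alert the immune system. The fragments are sequences of the deposited table that matched, over their full length and on the sense strand, a protein-coding transcript of a gene named Rpl or Rps with a number, of Rplp0, Rplp1 or Rplp2, or of Rpsa, and that matched no small RNA gene. Kinase genes with the prefix Rps6k were not taken. Of 538100 sequences in the table, 2480 met this rule. They came from 78 of the 80 genes with such a name in the annotation, 47 of the large and 31 of the small ribosomal subunit. Rpl10l and Rpl39l, copies of Rpl10 and Rpl39, had no read.

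The cells were grown from bone marrow of C57BL/6 mice with GM-CSF and IL-4 for 7 days and stimulated with LPS, the lipopolysaccharide of Gram-negative bacteria. Both groups shared strain, culture and treatment and differed in the cell fraction. The nuclear library held RNA of the pellet that contained the nuclei, and the cytoplasmic library held RNA of the remaining fraction, with 1 library in each group. No unstimulated cells were analysed here, so no value bears on the response to LPS. A pellet spun from lysed cells can also hold cells or membranes that were not lysed, and the purity of the fractions was not tested.

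Ribosomal proteins are the protein part of the ribosome and are assembled with ribosomal RNA in the nucleolus. Their mRNAs are short, abundant and spliced, and most begin with a run of pyrimidines, the 5′ terminal oligopyrimidine tract, through which growth signals control their translation. Introns of many of these genes hold small nucleolar RNAs (snoRNAs), and the genome holds many processed pseudogenes copied from the mRNAs, so that short fragments often match several places.

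The fragments that were most abundant in each library are shown here, because their 5′ ends differed between the libraries. Each line gives a fragment in capitals with the neighbouring 6 nt of the mRNA on either side in lower case, so that the last lower-case letter before the capitals is the base that preceded the fragment. Fragments with the same 5′ end were joined as 1 start site, and the longest of them is printed. The first group holds start sites with most cytoplasmic reads, and the sites were singled out after their values were seen.
Rpl3: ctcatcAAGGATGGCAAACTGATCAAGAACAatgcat
Rpl8: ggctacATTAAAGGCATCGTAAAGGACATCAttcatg
Rps15a: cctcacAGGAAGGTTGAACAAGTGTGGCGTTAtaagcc
Rpl30: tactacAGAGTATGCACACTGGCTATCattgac
Rpl21: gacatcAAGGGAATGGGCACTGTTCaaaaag
Rps26, first site: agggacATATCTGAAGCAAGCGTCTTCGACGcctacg
Rpl31: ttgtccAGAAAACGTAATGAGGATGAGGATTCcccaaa
Rps19: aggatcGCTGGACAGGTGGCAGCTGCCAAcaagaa
Rpl26: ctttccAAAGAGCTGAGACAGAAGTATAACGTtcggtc
Rps26, second site: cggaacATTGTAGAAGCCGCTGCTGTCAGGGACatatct

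Sites from among those with most nuclear reads inside coding sequence are shown for contrast, also chosen after their values were seen.
Rps27: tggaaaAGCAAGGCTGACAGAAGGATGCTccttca
Rplp0: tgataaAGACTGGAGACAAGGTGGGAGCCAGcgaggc
Rps15: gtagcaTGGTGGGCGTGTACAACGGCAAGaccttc

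The cytoplasmic sites had a common form. The Rpl3 site had 0 nuclear and 26 cytoplasmic reads in 8 sequences of 18 to 25 nt and lay in exon 7 of 10 at chr15:80078754-80078778 (GRCm38, minus strand), 880 to 904 nt into the coding sequence. The Rpl8 site had 0 nuclear and 18 cytoplasmic reads, matched no other gene and crossed the junction of exons 1 and 2 (chr15:76904433-76904545, plus strand, with the intron in between). The Rps15a site had 0 and 18 reads and crossed from exon 3 to exon 4 (chr7:118110009-118114800, minus strand). In these 3, as in most of the group, the base before the fragment was C and the first base was A.

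The other sites of the first group followed. Rpl30 had 0 nuclear and 15 cytoplasmic reads, and Rpl21 0 and 14 in 2 sequences, with matches in 64 genes. The adjoining sites of Rps26 had 5 nuclear and 13 cytoplasmic reads and 3 and 10 reads, and the first began directly after the longest fragment of the second ended. Rpl31 and Rps19 had 0 and 12 reads each and Rpl26 0 and 11. Of the 12 start sites with most cytoplasmic reads, 11 had C before the first base, 10 lay between a pyrimidine and A, 10 began at the first base of a codon, 6 crossed an exon junction, and 10 had no nuclear read. Together they held 169 cytoplasmic and 8 nuclear reads, an excess that the ranking by cytoplasmic reads favours in advance.

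The 12 sites with most nuclear reads were smaller and of mixed form. They held 81 nuclear and 10 cytoplasmic reads, an excess that the ranking by nuclear reads likewise favours in advance. Of these sites, 1 lay between a pyrimidine and A, 8 lay inside coding sequence, 0 began at the first base of a codon and 7 had no cytoplasmic read. The Rps27 site had 8 nuclear and 4 cytoplasmic reads, Rplp0 had 6 and 1, and Rps15 had 6 and 0. The nuclear site with most reads, 13 against 0 cytoplasmic, lay in the 5′ UTR of Rpl4 and consisted of a single sequence of 18 nt that matched no other gene. Start sites with at least 10 reads numbered 1 in the nuclear and 11 in the cytoplasmic library.

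The 2480 sequences held 1508 of the 2000019 nuclear reads and 1858 of the 2041383 cytoplasmic reads. The summed level was 754 RPM (nuclear) and 910 RPM (cytoplasmic), where RPM scales reads to the same total in both libraries. On that scale the cytoplasmic level exceeded the nuclear one 1.21-fold (95% interval 1.13 to 1.29), a direction that turned when the libraries were scaled to their miRNA reads (nuclear over cytoplasmic ratio 1.54, 1.44 to 1.65). Fragments of all other mRNAs went the opposite way on the RPM scale, with 100479 nuclear and 64536 cytoplasmic reads, a ratio of 1.59 (1.57 to 1.60).

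A scaling multiplies all nuclear over cytoplasmic ratios by 1 factor. Scaling to miRNA reads multiplies them by 1.86, so any ratio between 0.538 and 1 in what follows turns above 1 under it. Scaling to all mRNA fragment reads multiplies ratios by 0.638 and trimmed-mean (TMM) factors by 0.437, so ratios between 1 and 1.57, or 1 and 2.29, turn below 1.

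A comparison inside the mRNA fragments does not depend on the scaling. Ribosomal protein mRNAs gave 1.48% of mRNA fragment reads in the nuclear library (1.41 to 1.55) and 2.80% in the cytoplasmic library (2.67 to 2.93). Their ratio was thus 0.521 of that of other mRNAs (0.487 to 0.558). This factor was 0.543 (0.503 to 0.586) in coding sequence. There, most reads of ribosomal protein mRNAs had several matches, and most reads of other mRNAs matched a single gene. Among coding fragments with several matches the factor was 0.762 (0.703 to 0.825), and among those of a single gene 0.485 (0.376 to 0.624). In 5′ and 3′ UTRs it was 0.835 (0.547 to 1.32) and 0.817 (0.620 to 1.08), and these intervals included 1. For sequences that matched a single gene it was 0.785 (0.669 to 0.921), and 1.08 (0.873 to 1.35) for those of them not inside coding sequence. Rpl8 gave 17 of the 338 nuclear and 77 of the 295 cytoplasmic reads of the single-gene set. The single-gene factor without Rpl8 was not tested, so it cannot be taken as shared by the other genes. All intervals are exact and describe counting error alone, because PCR copies of 1 molecule were not marked by molecular identifiers. Each group had 1 library, so differences could not be checked against replicates, no p-value can be given, and ratios compare these 2 libraries.

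Depth per sequence was low. Of the 2480 sequences, 1930 (77.8%) had 1 read in all, 4 had at least 10, and the highest counts of 1 sequence were 13 nuclear and 15 cytoplasmic reads. The nuclear library held 1021 of the sequences and the cytoplasmic library 1534, and 75 were in both, which is 7.35% of the first and 4.89% of the second. Of all 538100 sequences in the table, 400087 had nuclear and 169208 had cytoplasmic reads, so few were in both there too. Whether the overlap of these fragments differs from that of the whole table was not tested. Per gene, the median was 39.5 reads over both libraries, with a range from 1 to 105.

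Both subunits had similar values. Large subunit mRNAs had 842 nuclear and 1067 cytoplasmic reads, a ratio of 0.805 (0.735 to 0.882). Small subunit mRNAs had 666 and 791 reads, a ratio of 0.859 (0.774 to 0.954), and the intervals overlapped. Genes with an annotated snoRNA gene inside their span (29 genes) had 582 and 702 reads, a ratio of 0.846 (0.757 to 0.946). The remaining genes had 926 and 1156 reads, a ratio of 0.818 (0.749 to 0.892), and these intervals overlapped. With sequences that matched a single gene they did not: hosts had 151 and 77 reads, a ratio of 2.002 (1.51 to 2.67), and other genes 226 and 222 reads, a ratio of 1.04 (0.860 to 1.26). A few genes weighed heavily in these sums. Rpl8, which is not a host, gave 17 nuclear and 77 cytoplasmic reads, and the hosts Rps3 and Rpl4 gave 39 and 14 and 32 and 19. Whether hosts differ without these genes was not tested.

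Of the 78 genes, 26 had at least 50 reads over both libraries and were compared singly, and 52 fell under this minimum. A gene was called higher or lower in the nuclear library when the log2 ratio, with 0.5 reads added, reached 1 in size and the interval of the ratio excluded 1. This held for 2 genes higher and 5 lower, while 19 had neither call. Over all 500 protein-coding genes with at least 50 reads, 34.8% were higher and 5.6% lower. Scaled to miRNA reads, 8 ribosomal protein genes were higher and 1, Rpl8, was lower (69% and 1% of all genes); scaled to mRNA fragment reads 0 and 14 (17.8% and 19.2%), and under TMM factors 0 and 19 (9.4% and 35.8%). With a minimum of 20 reads, 5 of 68 ribosomal protein genes were higher and 8 lower, beside 36.9% and 3.49% of 1804 protein-coding genes. With a minimum of 1 read the counts were 5 and 8 of 78, beside 13.8% and 0.925% of 10811. The ratio was below 1 for 17 of the 26 genes, and the median log2 ratio was -0.40 against 0.58 over the 500 genes. The interval alone was below 1 for 8 of the 26 (12.8% of the 500 genes) and above 1 for 3 (47% of them).

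**Figure D1:**
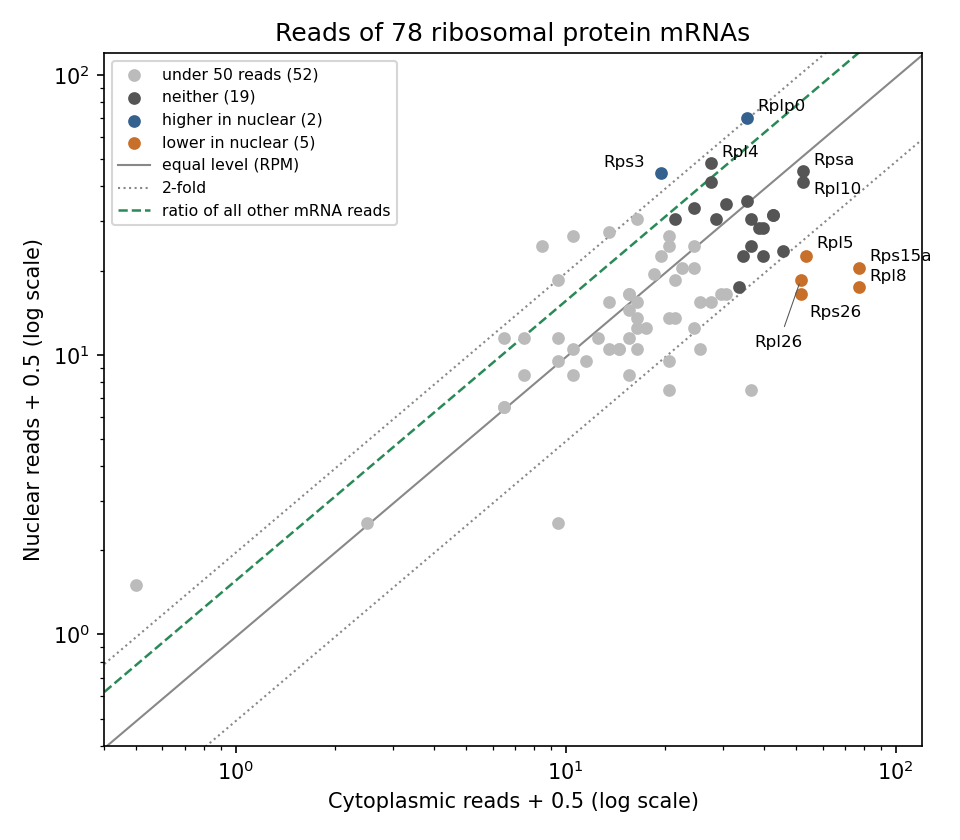
Nuclear against cytoplasmic reads (0.5 added, log axes) of the 78 ribosomal protein mRNAs with reads; each point is 1 gene, the solid line marks equal RPM, the dotted lines 2-fold, and the dashed line the ratio of all other mRNA reads (1.59). Most points lie below the dashed line, with Rplp0 and Rps3 above the upper dotted line and Rpl8, Rps15a, Rps26, Rpl26 and Rpl5 below the lower one.

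Rpl8 (chr15:76904078-76906314, plus strand), a large subunit protein near the peptidyl transferase centre, had 17 nuclear and 77 cytoplasmic reads (8.50 and 37.7 RPM). The cytoplasmic level was 4.44-fold the nuclear one (2.60 to 8.01; log2 nuclear over cytoplasmic ratio -2.12). Every read of this gene came from sequences with no other gene match, so the ratio does not rest on copies. A window of 50 nt at 91 to 140 nt of the coding sequence held the first bases of 58 of the 77 cytoplasmic reads and 7 of the 17 nuclear reads. Without the start site shown above, 17 and 59 reads were left and the log2 ratio was -1.74.

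Rps15a (chr7:118104372-118116188, minus strand), a protein of the small subunit, had 20 nuclear and 77 cytoplasmic reads, a cytoplasmic excess of 3.77-fold (2.28 to 6.51; log2 ratio -1.89). The window at 165 to 214 nt of the coding sequence held 30 of the cytoplasmic and 5 of the nuclear reads. Nearly all its sequences also matched copies elsewhere, and those of Rps15a alone had 3 and 2 reads, too few for a direction. Scaled to coding length, Rps15a had the highest cytoplasmic level of the 78 genes, 93.5 RPM per kilobase, against 20.4 in the nuclear library.

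Rps26 (chr10:128624534-128626747, minus strand), which lies at the exit of the mRNA channel, had 16 nuclear and 51 cytoplasmic reads, a cytoplasmic excess of 3.12-fold (1.75 to 5.87). Both libraries read the same stretch: the window at 123 to 172 nt of the coding sequence held the first bases of 15 of the 16 nuclear and 37 of the 51 cytoplasmic reads. This window contains both Rps26 sites printed above. Reads from sequences of Rps26 alone were 1 nuclear and 7 cytoplasmic, with an interval of the ratio that included 1 (0.003 to 1.13). Rpl26 (chr11:68901583-68906989, plus strand), a large subunit protein also known to bind the mRNA of the tumour suppressor p53, had 18 and 51 reads, a cytoplasmic excess of 2.78-fold (1.59 to 5.05). Sequences of Rpl26 alone had 4 and 5 reads.

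Rpl5 and Rpl11 carry the 5S ribosomal RNA into the large subunit and, with Rpl23, can bind the p53 regulator MDM2. Rpl5 (chr5:107900502-107909005, plus strand) had 22 nuclear and 53 cytoplasmic reads, a cytoplasmic excess of 2.36-fold (1.41 to 4.08). All sequences of Rpl5 also matched copies elsewhere, so its ratio could not be read from Rpl5 alone. Rpl11 had 24 reads in each library and Rpl23 had 10 and 14, both under the minimum for a call. The 3 genes together had 56 and 91 reads, and most of the difference came from Rpl5.

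The genes called higher in the nuclear library were Rplp0 and Rps3. Rplp0 (chr5:115559467-115563727, plus strand), the base of the stalk that recruits translation factors, had 70 nuclear and 35 cytoplasmic reads, a nuclear excess of 2.04-fold (1.34 to 3.16), and its log2 ratio turned to -0.17 under TMM factors. The window at 464 to 513 nt of its coding sequence held 30 of 66 placed nuclear reads and 6 cytoplasmic reads. The call ended without the start site printed above (64 and 34 reads, log2 ratio 0.93) and with sequences of Rplp0 alone (15 and 7 reads, interval of the ratio 0.839 to 6.34). The other stalk proteins had similar counts in the libraries, 16 and 15 reads for Rplp1 and 15 and 13 for Rplp2.

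Rps3 (chr7:99477896-99483738, minus strand), a small subunit protein that also acts in NF-κB signalling and DNA repair, had 44 nuclear and 19 cytoplasmic reads, a nuclear excess of 2.36-fold (1.35 to 4.29). Its nuclear reads were unevenly placed: 18 nuclear and 0 cytoplasmic reads crossed the start codon. Inside the coding sequence Rps3 had 19 and 15 reads, a log2 ratio of 0.36 (interval of the ratio 0.623 to 2.73), so the call rested on the start of the message. The window from 15 nt before to 34 nt into the coding sequence held 21 nuclear and 3 cytoplasmic reads.

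**Figure D2:**
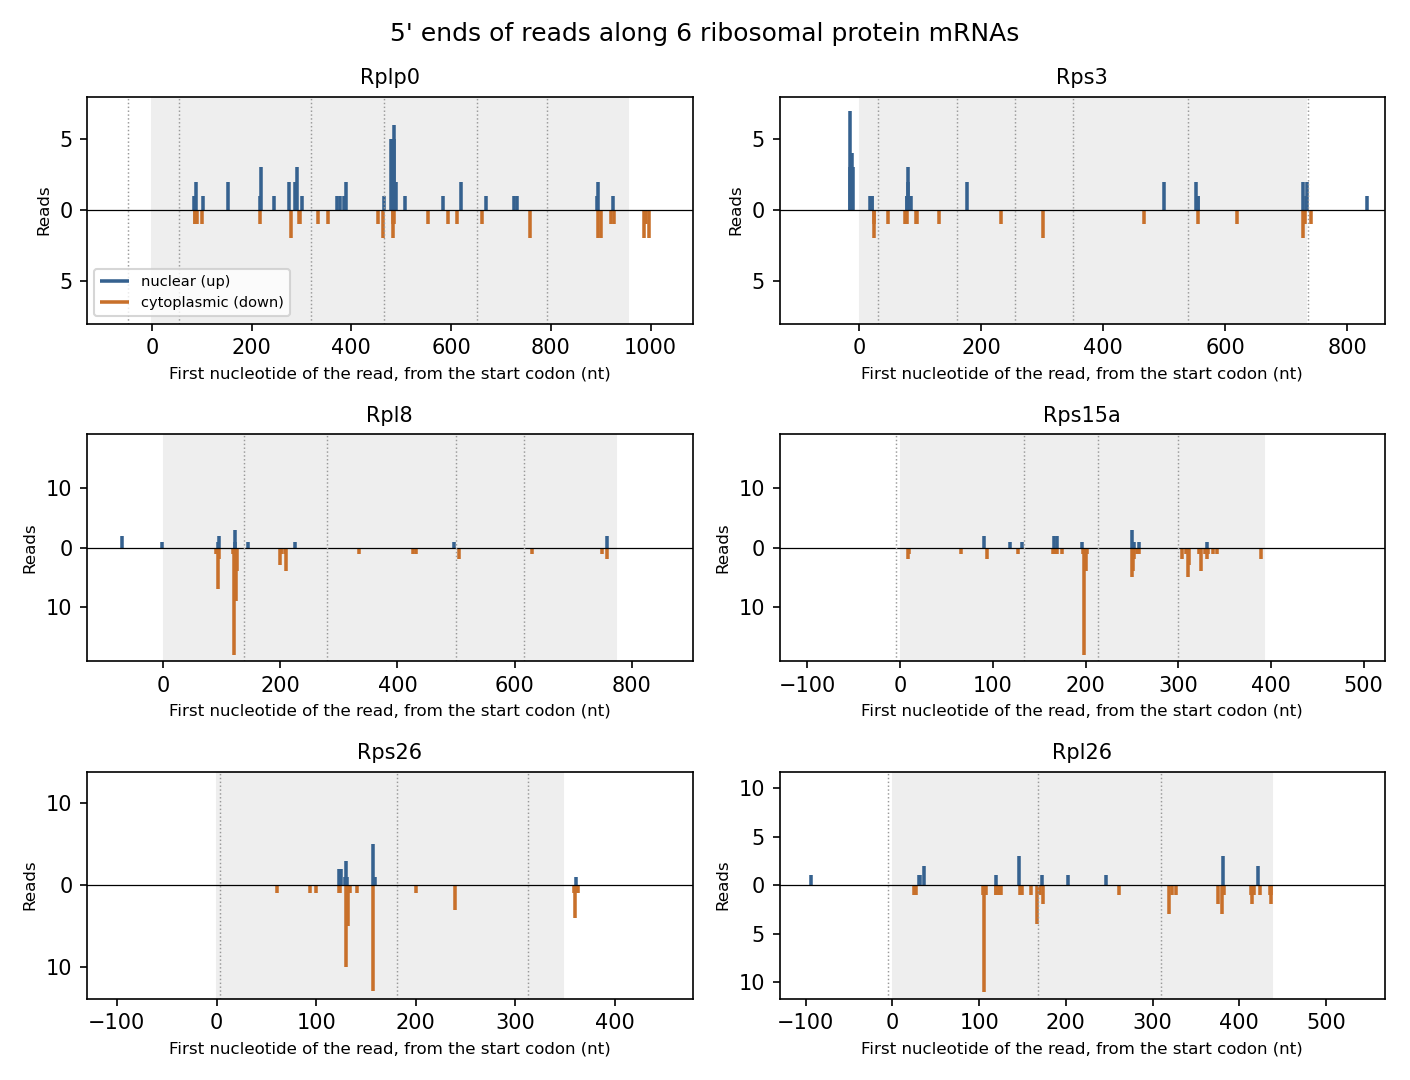
First nucleotide of each read along 6 ribosomal protein mRNAs, in nt from the start codon, with nuclear reads as bars up and cytoplasmic reads as bars down; the grey area is the coding sequence and dotted lines are exon junctions. Reads pile up in a few places, such as 58 of 77 cytoplasmic reads of Rpl8 in a 50 nt window and 30 nuclear reads of Rplp0 in another.

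Among the 19 genes without a call were some with an interval that excluded 1 and a change of under 2-fold. Rpl4 had 48 nuclear and 27 cytoplasmic reads (ratio 1.81, 1.11 to 3.02), with 16 nuclear and 1 cytoplasmic reads in its 5′ UTR and 28 and 23 in its coding sequence. Without its most abundant sequence Rpl4 had 35 and 27 reads, and the interval included 1 (0.778 to 2.27). Rpl3 had 23 and 45 reads (0.522, 0.301 to 0.881), and 34 of the 45 cytoplasmic reads began in a window at 877 to 926 nt of the coding sequence. Without the Rpl3 start site printed above, 23 and 19 reads were left, and the direction turned to a log2 ratio of 0.30 (interval of the ratio 0.644 to 2.40). Rpl24 had 22 and 39 reads (0.576, 0.325 to 0.995).

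The remaining abundant messages had intervals that included 1. Rpsa, the laminin receptor protein of the small subunit, had 45 nuclear and 52 cytoplasmic reads, and Rpl10, which completes the large subunit late in assembly, had 41 and 52. Rps18 had 35 reads in each library. Rps6, the phosphorylated protein much used as a readout of mTOR signalling, had 41 and 27 reads (ratio 1.55, 0.931 to 2.62). Rps10 and Rps9 had 31 and 42 reads each, Rps23 33 and 24, and Rps20 34 and 30. Rpl13a, known for silencing inflammatory mRNAs as part of the GAIT complex, had 22 and 19 reads, and Rps19, which binds the cytokine MIF, had 30 and 36.

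Per kilobase of coding sequence, levels spread widely and the order differed between the libraries. The median over the 78 genes was 13.0 RPM per kilobase in the nuclear and 16.4 in the cytoplasmic library. In the nuclear library Rpl41, whose peptide is the shortest of the ribosome, had the highest level at 64.1, followed by Rps27 at 48.2, Rpl37 at 45.9 and Rps18 at 38.1. In the cytoplasmic library Rps15a at 93.5 was followed by Rps26 at 61.9, Rpl26 at 51.4, Rps27 at 49.2 and Rpl8 at 47.5. Neighbours in these orders rest on few reads and their differences were not tested, and messages whose fragments match copies may hold reads of those copies.

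Position was set on 1 transcript per gene, the one with most reads, on which 2446 of the 2480 sequences could be placed. Coding sequence held 1155 of 1466 nuclear reads (78.8%, 76.6 to 80.9) and 1619 of 1854 cytoplasmic reads (87.3%, 85.7 to 88.8), while it made up 56.0% of the length of these transcripts. In other mRNAs, placed on the transcript with the longest coding sequence, it held 54.8% of nuclear and 60.9% of cytoplasmic reads for 56.4% of the length. The length shares depend on the transcripts chosen. That of Rps15a had 393 of 5179 nt in coding sequence, and that of Rps18 459 of 560 nt. How far the comparison with length rests on this choice was not tested. Coding fragments of ribosomal protein mRNAs had a nuclear over cytoplasmic ratio of 0.728 (0.675 to 0.786), which was 0.543 of that of other coding fragments (0.503 to 0.586). Among coding fragments with several matches this factor was 0.762, and among those of a single gene 0.485.

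The 5′ UTRs went the other way. They held 120 nuclear and 27 cytoplasmic reads, 8.19% (6.83 to 9.71) and 1.46% (0.962 to 2.11), a ratio of 4.54 (2.97 to 7.17). Other mRNAs had a similar ratio in their 5′ UTRs, 5.43 (5.16 to 5.71). Reads across the stop codon were fewer in the nuclear library, 28 against 67 (ratio 0.427, 0.264 to 0.672), and those across the start codon were 49 and 39. The 3′ UTRs held 114 and 102 reads (ratio 1.14, 0.866 to 1.51), 7.78% and 5.50%, while they made up 25.5% of the length of the transcripts chosen. The region shares show these values side by side.

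**Figure D3:**
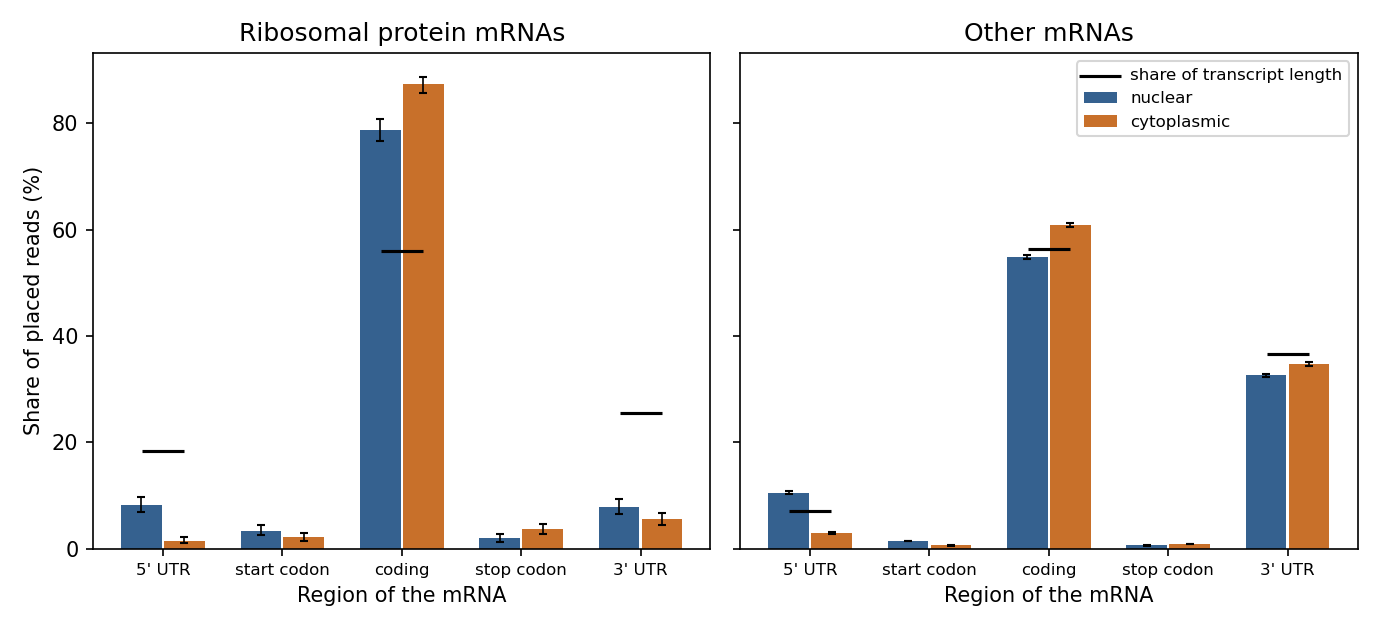
Share of placed reads (%) by region of the mRNA in the nuclear and the cytoplasmic library, for ribosomal protein mRNAs (left) and other mRNAs (right), with exact 95% intervals as error bars and the share of transcript length as a black line. Coding sequence holds 78.8% and 87.3% of reads of ribosomal protein mRNAs, and the 5′ UTR 8.19% and 1.46%.

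Fragments that cross an exon junction hold the sequence of spliced RNA, which processed pseudogenes also carry. They made up 14.8% of nuclear (13.0 to 16.7) and 20.7% of cytoplasmic reads (18.8 to 22.6), and 9.79% of all 21 nt windows of these transcripts cross a junction. In other mRNAs 4.89% of nuclear and 8.69% of cytoplasmic reads crossed one, against 6.86% of windows. These windows cover whole transcripts with their UTRs, while most reads of ribosomal protein mRNAs lay in coding sequence. Of reads inside coding sequence, 15.9% of nuclear and 20.7% of cytoplasmic ones crossed a junction (8.50% and 13.9% in other mRNAs). The share of coding windows was not computed, so an excess over windows cannot be told apart from the place of the reads. Junction fragments of ribosomal protein mRNAs had 217 nuclear and 383 cytoplasmic reads, a ratio of 0.578 (0.487 to 0.685). Those that matched a single gene, 76 sequences, had 45 and 78 reads (0.589, 0.399 to 0.861). Of these reads, 5 nuclear and 47 cytoplasmic ones were of Rpl8, so the direction for single-gene junction fragments rests on that gene.

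The first base and the base before it differed between the libraries over all fragments, as they did at the printed sites. Reads that began between a pyrimidine and A were 281 of 1465 in the nuclear library (19.2%, 17.2 to 21.3) and 660 of 1854 in the cytoplasmic library (35.6%, 33.4 to 37.8). Such positions make up 10.6% of the transcripts. Most had C before the A, 15.3% of nuclear and 29.2% of cytoplasmic reads against 7.05% of positions. In other mRNAs the shares were 16.8% and 43.2% with 11.6% of positions.

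The library ratio differed between fragments with and without this feature. Reads that began between a pyrimidine and A had a nuclear over cytoplasmic ratio of 0.435 (0.377 to 0.5004). All other starts had 1185 nuclear and 1194 cytoplasmic reads, a ratio of 1.01 (0.934 to 1.10). In other mRNAs these ratios were 0.581 and 2.18, so ribosomal protein fragments were lower than other mRNA fragments in both classes, by a factor of 0.748 (0.648 to 0.861) and 0.466 (0.429 to 0.505). The 3′ ends showed the feature less often: 161 of 1466 nuclear reads (11.0%) and 352 of 1853 cytoplasmic reads (19.00%) ended between a pyrimidine and A, and 2.94% and 9.23% had it at both ends.

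Fragments inside coding sequence began at the first base of a codon in 35.1% of nuclear reads (32.3 to 37.9) and 45.3% of cytoplasmic reads (42.9 to 47.8), where equal use of the codon bases gives 33.3%. In other mRNAs the shares were 33.3% and 38.4%. The reading frame and the pyrimidine-A feature moved together: 54.8% of pyrimidine-A positions in these coding sequences have their A at the first base of a codon. Among reads that began at such positions 60.6% of nuclear and 68.3% of cytoplasmic reads were in this frame (54.1 to 66.8 and 64.4 to 72.0). Among all other starts the shares were 28.3% and 31.7%.

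**Figure D4:**
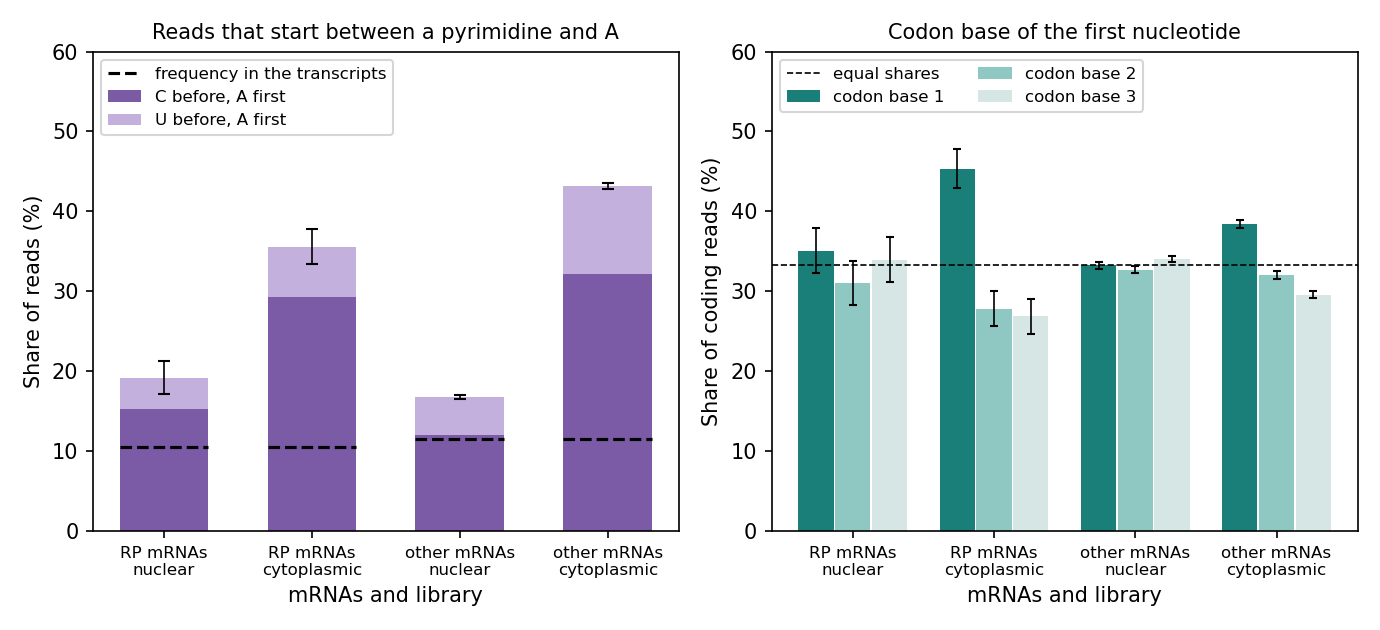
Left, share of reads (%) that begin between C or U and A in each library, for ribosomal protein (RP) and other mRNAs, with the frequency of such positions in the transcripts as dashed lines; right, share of coding reads (%) whose first nucleotide is codon base 1, 2 or 3, with equal shares as a dashed line. Error bars are exact 95% intervals. In ribosomal protein mRNAs the left share is 19.2% nuclear and 35.6% cytoplasmic, and codon base 1 holds 35.1% and 45.3%.

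Fragment length differed little. The median was 21 nt in both libraries and the mean 21.2 nt in the nuclear and 21.6 nt in the cytoplasmic library. Fragments of 25 to 31 nt made up 152 of 1508 nuclear reads (10.1%, 8.61 to 11.7) and 268 of 1858 cytoplasmic reads (14.4%, 12.9 to 16.1), against 8.01% and 11.8% in other mRNAs. No fragment of 32 to 39 nt was read, which allows a share of at most 0.244% and 0.198% (upper bounds of the exact intervals). No single length held more than 13.8% of cytoplasmic or 15.8% of nuclear reads, as the length profile shows.

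**Figure D5:**
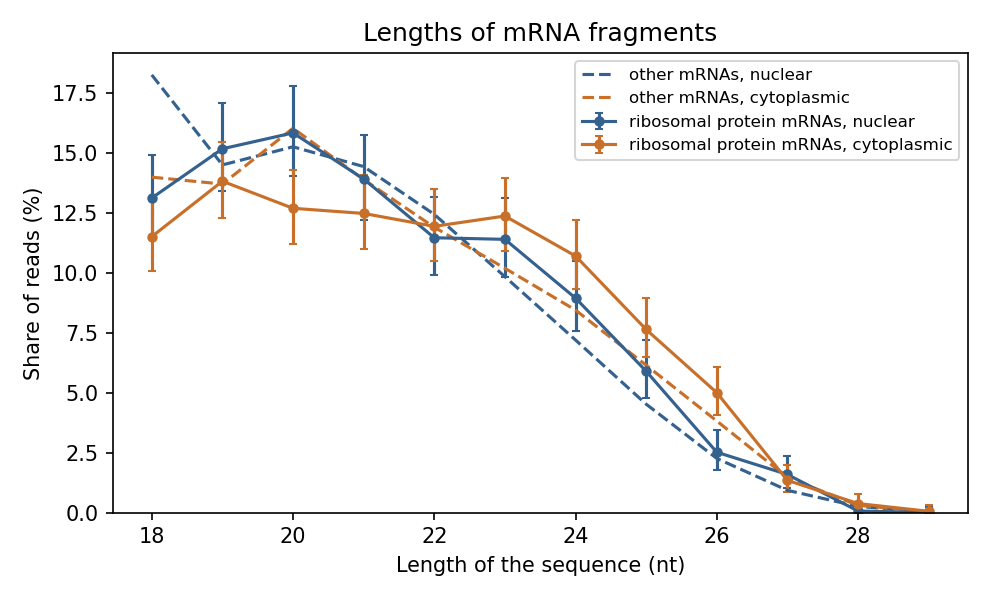
Share of reads (%) by sequence length (nt) for ribosomal protein mRNAs (solid lines, exact 95% intervals) and other mRNAs (dashed lines) in each library. All 4 lines fall from about 20 nt towards 28 nt, and the cytoplasmic line of ribosomal protein mRNAs lies above the nuclear one from 22 to 26 nt.

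The summed ratio differed between fragments of a single gene and fragments with several matches. Sequences that matched a single gene numbered 484 (19.5%) and had 377 nuclear and 299 cytoplasmic reads, a ratio of 1.29 (1.10 to 1.50), against 0.740 (0.685 to 0.800) for those with several matches. Inside coding sequence, single-gene fragments had 107 and 158 reads, a ratio of 0.691 (0.536 to 0.889), and fragments with several matches 0.732 (0.676 to 0.793). Outside it, single-gene fragments had 231 and 137 reads, a ratio of 1.72 (1.39 to 2.14). The coding ratio was thus below 1 by RPM in both classes. In the single-gene class, however, Rpl8 alone held 10 of the nuclear and 75 of the cytoplasmic coding reads. The direction of that class therefore rests on 1 gene.

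Other genes of translation, from a list chosen with earlier results known, had values near those of ribosomal proteins. The list of 19 genes for elongation and initiation factors and other mRNAs with a 5′ oligopyrimidine tract had 618 nuclear and 687 cytoplasmic reads (ratio 0.918, 0.822 to 1.03). Of 8 genes with at least 50 reads, 1 was higher and 1 lower in the nuclear library. Npm1, the nucleolar chaperone nucleophosmin, was 3.02-fold higher (77 and 26 reads, 1.92 to 4.91), and Tpt1, a growth-related oligopyrimidine-tract mRNA, was lower (43 and 96 reads, ratio 0.457, 0.311 to 0.662). Eef1a1, the elongation factor that brings transfer RNA to the ribosome, had 130 and 221 reads (0.600, 0.480 to 0.749).

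Messages for making ribosomes and for the mitochondrial ribosome had more nuclear than cytoplasmic reads. Ribosome biogenesis genes had 80 nuclear and 34 cytoplasmic reads (ratio 2.40, 1.59 to 3.70) in 9 of 11 genes, of which Ncl, the nucleolar protein nucleolin, was the 1 with at least 50 reads and was called higher (40 and 19 reads). Genes of the mitochondrial ribosome, 64 in number, had 218 and 72 reads (3.09, 2.36 to 4.09), and none reached 50 reads. Among ribosomal proteins made as fusions with ubiquitin or a like protein, Rps27a had 15 and 27 reads and Fau 22 and 12. Of copies with restricted or unclear roles, Rps27l had 2 and 9 reads, and Rpl3l 1 and 0. Rps4l is annotated as a pseudogene and had no read counted.

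Markers of cell types were read in the same way over mRNA fragments. Dendritic cell genes had 603 nuclear and 622 cytoplasmic reads in 8 of 9 genes, with Flt3 at 0. They differed in direction, as Ccr7 had 151 and 70 reads and Cst3 82 and 149. Macrophage or monocyte genes had 157 and 472 reads in 4 of 4, most of them from Lyz2 (96 and 411). Adgre1 had 7 and 19 reads, Csf1r 42 and 30 and Cd68 12 and 12. Stromal genes had 83 and 8 reads in 4 of 4, a ratio of 10.6 (5.13 to 25.3). Neutrophil genes had 8 and 10, liver genes 4 and 0 in 1 of 3 and T cell genes 1 and 0 in 1 of 3, while the erythroid and B cell genes were at 0. Which cells gave the ribosomal protein fragments cannot be told from genes that all cells use, and the part of stromal cells in the nuclear library was not tested.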

How the data were processed

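Small RNA sequences of 2 libraries were taken from the authors' deposited table, whose values are RPM. CASAVA and the build mm10 are named per the submitters' processing notes; the sources used here do not say how reads were trimmed, aligned or filtered. No label pairs the abbreviated column names with samples, and the columns were taken as nuclear and cytoplasmic from their last letter. Within 0.1 read, 100% of values were whole multiples of 1 read, and whole reads were recovered (2000019 nuclear, 2041383 cytoplasmic). The number of reads sequenced is unknown.

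Sequences of 18 to 39 nt were matched without mismatch to transcripts of GENCODE vM21 (GRCm38) with Python 3.11.15, numpy 2.4.6, pandas 2.3.3 and scipy 1.17.1. Sequences that also matched a small RNA gene were left out (235 sequences, 809 nuclear and 59 cytoplasmic reads). Matches to pseudogenes were kept (1916 sequences). Matching the sequences reversed gave 1 sequence, and the method was tested on simulated data.

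Ratios are nuclear over cytoplasmic RPM with exact conditional (Clopper-Pearson) 95% intervals, and shares have exact binomial intervals. A count model such as edgeR's could not be fitted with 1 library in each group. Alternatives tried were other scalings, single-gene or distinct sequences, longer sequences, other minimums and pseudocounts, and other transcripts. Genes named were the 10 with most reads in each library among those with at least 50 reads, all genes called (at most 10 in each direction), the 5 sequences with most reads in each library and all members of lists of 5 or fewer genes. Genes named beyond this, and the start sites, were chosen after their values were seen. The members and lists were chosen with earlier results of these data known. Some items that these rules name are not reported here.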

Additional observations from a re-analysis of the deposited data

How the results depend on the processing

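The direction of the summed fragments depended on the scaling. Scaled to miRNA reads the ratio was 1.54 for all fragments, 1.50 for the large and 1.60 for the small subunit, 1.57 for snoRNA hosts and 1.52 for other genes; 8 genes were higher and 1 lower, and the median log2 ratio was 0.49. Scaled to mRNA reads, 0 were higher and 14 lower (median -1.05), and under TMM factors 0 and 19 (median -1.60), where Rplp0 came to -0.17, Rps18 to -1.16 and Rpl11 to -1.16. The median of all 500 genes was 0.58 by RPM, 1.48 by miRNA reads, -0.07 by mRNA reads and -0.61 by TMM. These shifts follow from the scaling factors, which move every gene alike.

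With single-gene sequences the ratio was 1.29 for all fragments, 1.15 for the large and 1.48 for the small subunit, 2.002 for snoRNA hosts and 1.04 for other genes. Of 3 genes left with 50 reads, 1 was higher and 1 lower (median 0.77), and the log2 ratio was 0.51 for Rps15a (3 and 2 reads) and 4.12 for Rpsa (8 and 0 reads). Nuclear and cytoplasmic shares became 32.7% and 7.14% in 5′ UTRs, 31.9% and 54.1% in coding sequence, 15.5% and 16.7% in 3′ UTRs, 12.9% and 26.2% across junctions, and 15.0% and 30.6% with a pyrimidine-A start; nuclear shares were 7.43% at 25 to 31 nt and 28.4% at codon base 1.

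Counting distinct sequences gave 0 genes higher and 5 lower of 11 tested, with a median of -0.79. Of nuclear sequences, 12.1% were of 25 to 31 nt. Cytoplasmic shares were 18.4% across junctions, 31.2% with a pyrimidine-A start and 42.1% at codon base 1. Without the top sequence of each gene 1 gene was higher and 6 lower of 24 tested, and pyrimidine-A starts were 17.04% nuclear and 31.8% cytoplasmic. At 22 nt and longer, 0 genes were higher and 3 lower of 3 tested (median -1.98), and nuclear shares were 4.84% in 5′ UTRs, 85.2% in coding sequence and 5.81% in 3′ UTRs. On transcripts with the longest coding sequence these were 6.36%, 81.9% and 6.21%. A minimum of 20 reads gave 5 genes higher and 8 lower of 68 tested, and a minimum of 1 read gave 5 and 8 of 78. With a pseudocount of 5 reads 1 gene was higher, and without the top start site of each gene, an alternative chosen after seeing the data, 0 were. Shares over all protein-coding genes were not computed for single-gene or distinct sequences, longer sequences, the pseudocount, or without top sequences or sites. The counts of calls under those settings therefore have no background beside them. Of the values of the summed and per-group results under these alternatives, 98 stayed within the limits set for a change, 46 moved past them and 12 turned in direction.

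No paired analysis was possible because each group had 1 library. For the same reason no library could be left out. Depth limited single genes: of 26 genes tested, 19 had no call.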

Other observations

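Sequences on the opposite strand of ribosomal protein mRNAs were nearly all nuclear. Full-length antisense matches were found for 270 sequences with 624 nuclear and 32 cytoplasmic reads, a ratio of 19.9 (14.0 to 29.4). Those with no sense match to any annotated transcript had 58 and 1 reads. Sequences left out because they also matched a small RNA gene had 809 nuclear and 59 cytoplasmic reads, a ratio of 14.0 (10.7 to 18.6), while the fragments described above had 1508 and 1858.

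Several genes under the minimum of 50 reads had intervals that excluded 1 and at least 2-fold changes, chosen here after their values were seen. Rpl31 had 7 nuclear and 36 cytoplasmic reads, a cytoplasmic excess of 5.04-fold (2.21 to 13.4), and Rps25 had 10 and 25 and Rps29 7 and 20. Rps15 had 26 nuclear and 10 cytoplasmic reads, and Rpl41 27 and 13.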
